A study of Mus musculus with 4 samples.

Results

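The epidermal growth factor (EGF) receptor genes examined here are 9 in all of 46095 symbols counted. They were taken by symbol: the ligand genes Egf, Tgfa, Hbegf, Btc, Areg and Ereg, the receptor genes Egfr and Erbb2, and Errfi1. Each symbol had 1 row, and Errfi1 encodes neither a ligand nor a receptor but an inhibitor that binds the receptor kinase. Total RNA of the colon was sequenced, from C57BL/6 mice aged 21 postnatal days, in 2 libraries labelled Esr2-KO (genotype Esr2-/-, lacking estrogen receptor β) and in 2 labelled WT (wild type). No other allele or agent is given for either genotype, and a further library of each, which the design text implies by speaking of triplicates, is not analysed here. The labels name neither the position within the colon nor whether the libraries came from separate animals, so that p-values measure the spread between these libraries.

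Ligands of this family are made as membrane-anchored precursors, are cut free by proteases at the cell surface, and make receptors pair and phosphorylate each other. The signal runs through RAS and the kinase ERK and through PI3 kinase, and is damped by feedback inhibitors such as Errfi1, Sprouty proteins and dual-specificity phosphatases. In the intestine the pathway is known for driving crypt cell division and repair of the epithelium after injury. ERBB2 binds no ligand of its own and serves as a partner for the other receptors.

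Depth was similar, from 30826790 to 33709643 counts, and 1 library stood apart. Genes of the acinar pancreas took 18.7% of the counts of Esr2-KO 2, against 0.192% in Esr2-KO 1 and 0.0504% and 0.0553% in WT. Of the 28 acinar genes listed, Prss1, Prss2, Try4 and Try10 were at 0 in every library. All 19 tested acinar genes were higher in both Esr2-KO libraries than in both WT libraries. Groups did not overlap, in either direction, for 54.7% of all genes tested. Among the 19 only Spink1 passed an adjusted p of 0.05, where 1.3% of all genes tested were called higher. Spink1 had 9765 and 9193 counts in Esr2-KO and 4342 and 4797 in WT (edgeR adjusted p = 0.0204). Colon markers were present in all 4 libraries, with Slc26a3 between 480 and 1087 CPM (counts scaled to library size), although Cdx2 was lower in Esr2-KO (60.9 and 27.9 CPM) than in WT (199 and 165 CPM, edgeR adjusted p = 0.0373). Car1 was the other called gene among the 7 colon markers, also lower in Esr2-KO (edgeR adjusted p = 0.0469). Esr2 had 6 and 16 counts in Esr2-KO and 21 and 13 in WT, too few to check the labels, and the deleted part of the gene is not stated.

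Hbegf, the gene of heparin-binding EGF-like growth factor, stood in Esr2-KO colon at 0.469 times its WT level, and Ereg, which encodes epiregulin, was lower without passing the threshold. The other ligands and both receptors showed no detectable difference with 2 libraries per genotype. Every gene passed the filter on low counts and was tested. Of the 9 genes, 0 rose, 1 fell and 8 did not pass an adjusted p of 0.05 (edgeR's quasi-likelihood test, Benjamini-Hochberg adjustment), while 2.69% of all 17169 genes tested were called. Calls of higher genes made up 1.3% and calls of lower genes 1.39%. At an adjusted p of 0.10, Hbegf and Ereg passed, beside 7.25% of all genes. The median log2 fold change was -0.13 over the 9 genes and -0.003 over all genes tested. Groups did not overlap for 2 of the 9, Hbegf and Ereg, and for 54.7% of all genes tested.

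**Figure D1:**
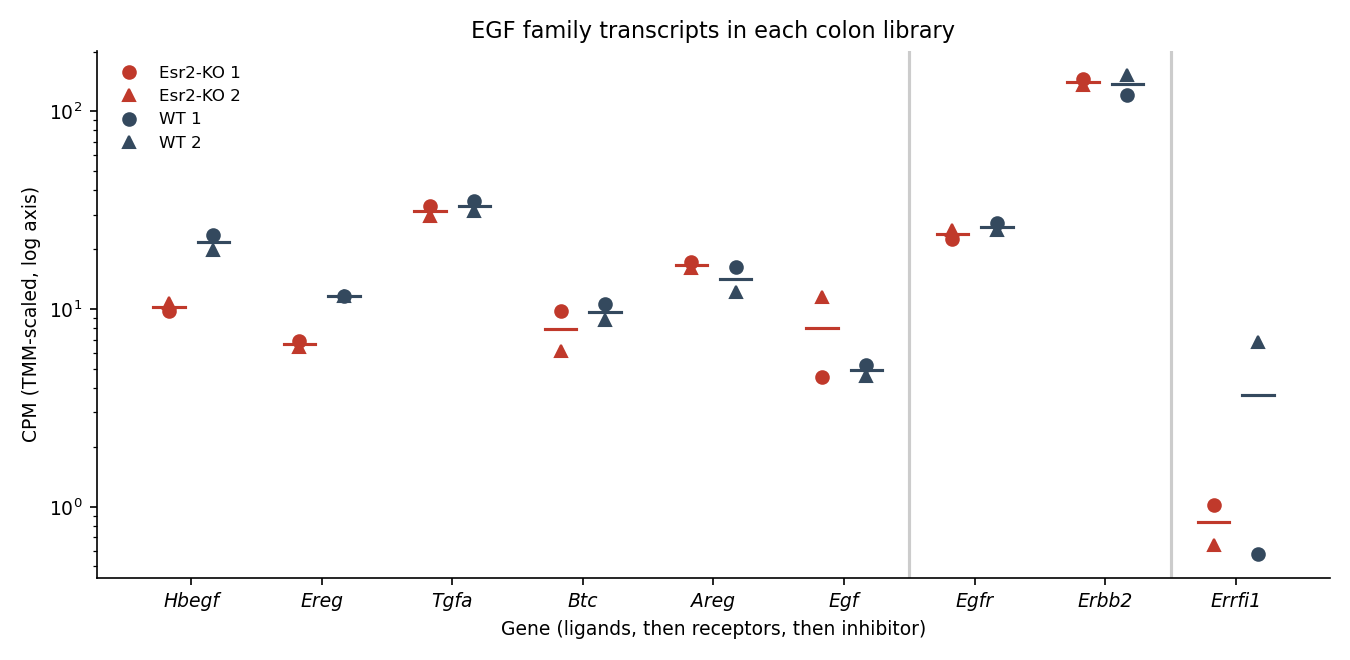
Level of each gene in each library (vertical axis, CPM on TMM-scaled totals, log axis), with Esr2-KO left of WT, points for libraries and bars for the mean of 2 libraries. Both Esr2-KO libraries lie below both WT libraries for Hbegf (9.82 and 10.7 against 23.8 and 19.98 CPM) and Ereg, while 1 library stands apart for Egf (Esr2-KO 2) and for Errfi1 (WT 2).

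Hbegf had 336 and 282 counts in Esr2-KO and 863 and 695 counts in WT, or 9.82 and 10.7 CPM against 23.8 and 19.98 CPM. Both Esr2-KO libraries were low, both WT libraries were high, and the gap between the groups was wider than the gap within either. Means were 10.3 ± 0.618 CPM in Esr2-KO and 21.9 ± 2.68 CPM in WT (SD, n = 2 each). The log2 fold change was -1.09 ± 0.17 (SE), a level 0.469 times that in WT with a 95% interval from 0.351 to 0.627 (edgeR adjusted p = 0.0334). The gene lies on chromosome 18 from 36504927 to 36515805 (GRCm38) on the minus strand, and its exons overlap those of no other gene in GENCODE M21. With single libraries left out, its call ended without WT 1 (log2 fold change -0.96, edgeR adjusted p = 0.163) and without WT 2 (-1.19, edgeR adjusted p = 0.0694), settings where 0.921% and 1.85% of all genes were called. It held without Esr2-KO 2, the library rich in acinar transcripts (-1.15, edgeR adjusted p = 0.0254, with 2.77% of all genes called).

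HB-EGF can come from epithelium and from macrophages, and in bulk tissue fewer cells of a type and less RNA per cell cannot be told apart. None of 7 general epithelial markers passed the threshold, with a median log2 fold change of 0.04 and summed levels of 9803 and 9819 CPM in Esr2-KO and 9477 and 8509 CPM in WT. Of the markers of single epithelial cell types named next, Smoc2 (higher in Esr2-KO) and Car1 (lower) passed. Of 4 tested crypt stem markers 1 rose, while calls of higher genes made up 1.3% of all genes tested, and the list median was 0.39. It was Smoc2, with 48.1 and 45.8 CPM in Esr2-KO and 30.4 and 29.8 CPM in WT (edgeR adjusted p = 0.0476). For Lgr5 (0.14 ± 0.26, edgeR adjusted p = 0.807) and Axin2 (-0.007 ± 0.14, edgeR adjusted p = 0.984) the groups overlapped. Ascl2, a stem cell factor of that list, was at 1.07 ± 0.27 (edgeR adjusted p = 0.0912). Muc2, the goblet cell mucin, had 818 and 346 CPM in Esr2-KO and 1945 and 1549 CPM in WT (edgeR adjusted p = 0.0945). Car4, a colonocyte carbonic anhydrase, had 1156 and 1348 CPM in Esr2-KO and 546 and 685 CPM in WT (edgeR adjusted p = 0.0596). Car1, another carbonic anhydrase of the colon list, went the other way (edgeR adjusted p = 0.0469). It had 1112 and 1082 CPM in Esr2-KO and 3002 and 6491 CPM in WT. Of the 7 colon markers 0 rose and 2 fell, Car1 and Cdx2, while calls of lower genes made up 1.39% of all genes tested. Lgr5, Axin2, Ascl2, Muc2, Car4 and Car1 were named after their values were seen. None of 6 stromal markers (median 0.09) or 6 smooth muscle markers (median -0.05) passed.

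None of the 6 tested macrophage and granulocyte markers passed either, with a median of -0.27, 2 positive and 4 negative. Their list of 7 summed to 461 and 385 CPM in Esr2-KO and 441 and 468 CPM in WT, and S100a8 had at most 1 count. The part of any of these cell types in the lower Hbegf was not tested.

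Ereg, whose product binds EGFR and ERBB4, had 237 and 170 counts in Esr2-KO and 422 and 405 in WT. That is 6.93 and 6.45 CPM in Esr2-KO, against 11.6 CPM in each WT library. The groups were apart, and the WT libraries were nearly equal. The log2 fold change was -0.80 ± 0.19 (SE, n = 2 each), with an edgeR adjusted p of 0.0860 and an unadjusted p of 0.00504. It passed with DESeq2 (adjusted p = 0.0219), which called 6.64% of its genes, and in edgeR with no filter on low counts (adjusted p = 0.0434), where 7.51% were called. In the 12 other settings of 14 Ereg did not pass, among them the replicate number as a block (edgeR adjusted p = 0.142). With 1 library left out its log2 fold change ran from -0.85 (without Esr2-KO 1) to -0.74 (without Esr2-KO 2).

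Ereg stands in a row of related ligand genes on chromosome 5 (GRCm38). Epgn, which encodes epigen (91027517 to 91035212), is followed by Ereg (91074617 to 91093649) and Areg (91139599 to 91148432), and Btc (91357261 to 91402994) lies on the opposite strand. Ereg and Areg are 45949 bases apart and Areg and Btc 208828. These neighbours did not show the same values. Areg, which encodes amphiregulin, had 17.3 and 16.2 CPM in Esr2-KO and 16.2 and 12.2 CPM in WT, which gave a log2 fold change of 0.24 ± 0.19 (SE, edgeR adjusted p = 0.537). Esr2-KO 2 lay just below WT 1, so that the groups overlapped, and the 95% interval ran from 0.853 to 1.62 times the WT level.

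Btc, the betacellulin gene, had 9.74 and 6.15 CPM in Esr2-KO and 10.6 and 8.77 CPM in WT. Its log2 fold change was -0.28 ± 0.27 (edgeR adjusted p = 0.606), and the lowest value was that of Esr2-KO 2. Without that library the log2 fold change of Btc was 0.016. Epgn had 1 and 0 counts in Esr2-KO and 4 and 3 in WT, too few to be tested. Exons of Ereg share 141 bases with the antisense gene Gm19610, 3.42% of their length, and reads of the pair cannot be told apart unless the counting used strand, a setting not given here.

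The count ratio of a pair of genes within a library does not depend on scaling, and 3 such ratios were computed after the values had been seen. Ereg over Areg was 0.400 and 0.398 in Esr2-KO and 0.715 and 0.951 in WT. Hbegf over Tgfa was 0.297 and 0.361 in Esr2-KO and 0.675 and 0.639 in WT. Hbegf over Egfr, ligand to receptor, was 0.432 and 0.425 in Esr2-KO and 0.877 and 0.795 in WT. In each ratio both Esr2-KO libraries lay below both WT libraries, and the mean ratio in Esr2-KO was 0.479 to 0.513 times that in WT. A two-sided exact permutation test gave p = 0.333 for each, the smallest p that 2 libraries against 2 allow.

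Tgfa encodes transforming growth factor α, a ligand made by many epithelia. It had 33.1 and 29.7 CPM in Esr2-KO and 35.2 and 31.2 CPM in WT, with overlapping groups. The log2 fold change was -0.08 ± 0.14 (edgeR adjusted p = 0.774), and the 95% interval ran from 0.751 to 1.19 times the WT level. A change of the size seen for Hbegf lies outside that interval.

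Egf, the founding ligand, had 4.53 CPM in Esr2-KO 1 and 11.6 CPM in Esr2-KO 2, against 5.23 and 4.57 CPM in WT. One library was high and the other 3 lay close together, so that the groups overlapped. The log2 fold change was 0.71 ± 0.43 (edgeR adjusted p = 0.402), and it was -0.11 (edgeR adjusted p = 0.934) without Esr2-KO 2 and 1.24 (edgeR adjusted p = 0.0184) without Esr2-KO 1, a setting that called 10% of all genes. The high library is the one richest in pancreatic transcripts. There Cela2a, a pancreatic elastase, stood at 43695 CPM, against 83.2 CPM in Esr2-KO 1 and 11.1 and 2.76 CPM in WT. The part of these transcripts in the Egf value was not tested. Exons of Egf share 1107 bases, 9.82% of their length, with antisense genes.

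The receptors did not differ detectably. Egfr, the receptor of all 6 ligands, had 22.7 and 25.1 CPM in Esr2-KO and 27.1 and 25.1 CPM in WT (log2 fold change -0.13 ± 0.14, edgeR adjusted p = 0.652). Its 95% interval ran from 0.729 to 1.15 times the WT level. Erbb2 was the most abundant of the 9 genes, with 146 and 135 CPM in Esr2-KO and 121 and 153 CPM in WT. Its log2 fold change was 0.03 ± 0.15 (edgeR adjusted p = 0.921), with an interval from 0.803 to 1.30 times, and both Esr2-KO values lay between the WT values. The direction of Erbb2 turned with library totals in place of TMM (-0.12), a scaling that moved the median of all genes to -0.17.

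Errfi1, whose product binds and blocks the kinase domain of the receptor, had the widest spread. It had 35 and 17 counts in Esr2-KO and 21 and 236 in WT, or 1.02 and 0.645 CPM against 0.578 and 6.78 CPM. WT 2 alone was high, 11.7 times WT 1, and both Esr2-KO libraries lay between the WT libraries. The fitted log2 fold change was -2.12 ± 1.01 (edgeR adjusted p = 0.293), and without WT 2 it was 0.55 (edgeR adjusted p = 0.800). With no filter on low counts it passed (edgeR adjusted p = 0.0370), a setting where 7.51% of all genes were called.

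**Figure D2:**
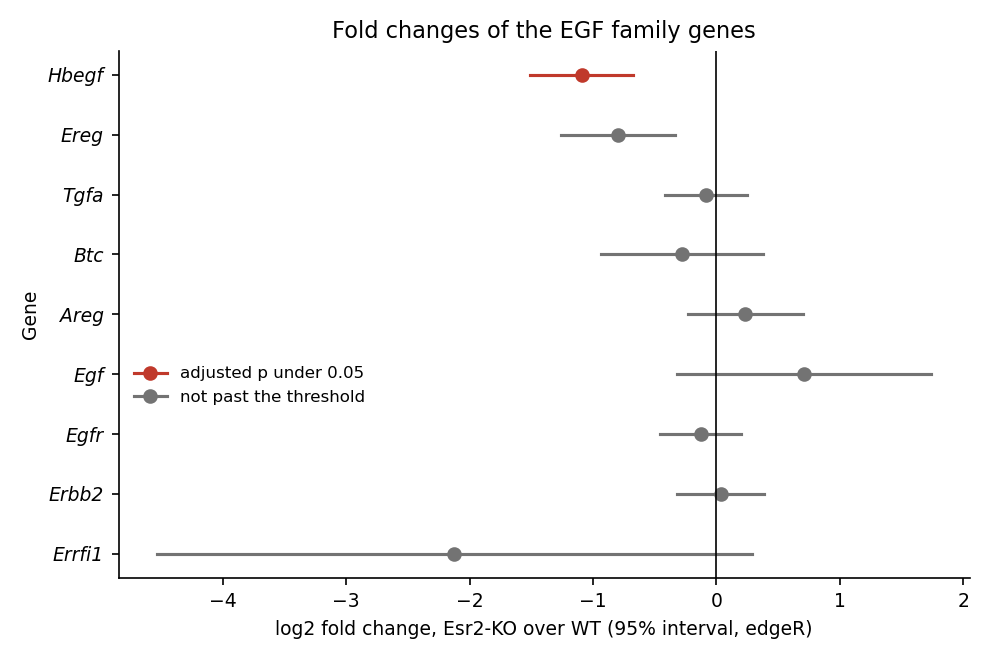
Log2 fold change of each gene, Esr2-KO over WT (horizontal axis), with the 95% interval of the edgeR fit as a line, and genes down the page. The interval of Hbegf (-1.51 to -0.67) and that of Ereg (-1.26 to -0.33) lie below 0, but only Hbegf passed the adjusted threshold, and the interval of Errfi1 is the widest (-4.53 to 0.29).

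Levels of different genes can be compared per length. RPKM, the CPM per kilobase of exon, on the union of exons in GENCODE M21, put Erbb2 first with 27.0 ± 1.39 in Esr2-KO and 26.3 ± 4.28 in WT (SD, n = 2 each). Areg came next with 13.8 ± 0.664 in Esr2-KO and 11.7 ± 2.33 in WT, and its lowest library lay above the highest of any other ligand. Tgfa followed with 4.83 ± 0.371 in Esr2-KO and 5.12 ± 0.433 RPKM in WT. Below these the order differed between the genotypes. In Esr2-KO the means ran from Hbegf (2.12 RPKM) through Egfr (2.11), Btc (1.76), Ereg (1.62) and Egf (0.714) to Errfi1 (0.233). Hbegf overlapped Egfr, Egfr overlapped Btc and Btc overlapped Ereg, while the other neighbours in that order were apart. In WT the means ran from Hbegf (4.52 RPKM) through Ereg (2.82), Egfr (2.31), Btc (2.14) and Errfi1 (1.03) to Egf (0.435). There Tgfa overlapped Hbegf, Egfr overlapped Btc and Errfi1 overlapped Egf. Errfi1 stood above Egf through WT 2 alone (1.89 against 0.405 RPKM), and Egf was higher in the other 3 libraries.

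The length used matters here. With the longest coding transcript, a setting added after the data were seen, Erbb2 and Areg still came first in both genotypes. Hbegf then stood below Tgfa in Esr2-KO (4.14 and 4.50 against 7.30 and 6.55 RPKM) and above it in WT (10.01 and 8.41 against 7.78 and 6.90 RPKM).

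As a share of the summed ligand RPKM, Areg held 55.7% and 55.4% in Esr2-KO and 45.6% and 41.7% in WT. Hbegf held 7.93% and 9.20% in Esr2-KO, against 16.8% and 17.1% in WT, and Ereg 6.55% and 6.49% against 9.60% and 11.7%. Tgfa held 19.9% and 19.0% in Esr2-KO and 18.5% and 19.9% in WT. The sum over the 6 ligands was 25.6 and 24.1 RPKM in Esr2-KO and 29.3 and 24.2 RPKM in WT, and WT 2 lay between the Esr2-KO libraries. With the longest coding transcript in place of the union of exons, the share of Hbegf was 13.0% and 14.8% in Esr2-KO and 25.8% and 26.1% in WT. That of Areg was then 44.98% and 43.7% in Esr2-KO and 34.5% and 31.3% in WT, and the ligands summed to 31.7 and 30.5 RPKM in Esr2-KO and 38.7 and 32.2 RPKM in WT, with no overlap. Because shares add to the whole, a lower share of Hbegf and Ereg raises that of Areg by construction.

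**Figure D3:**
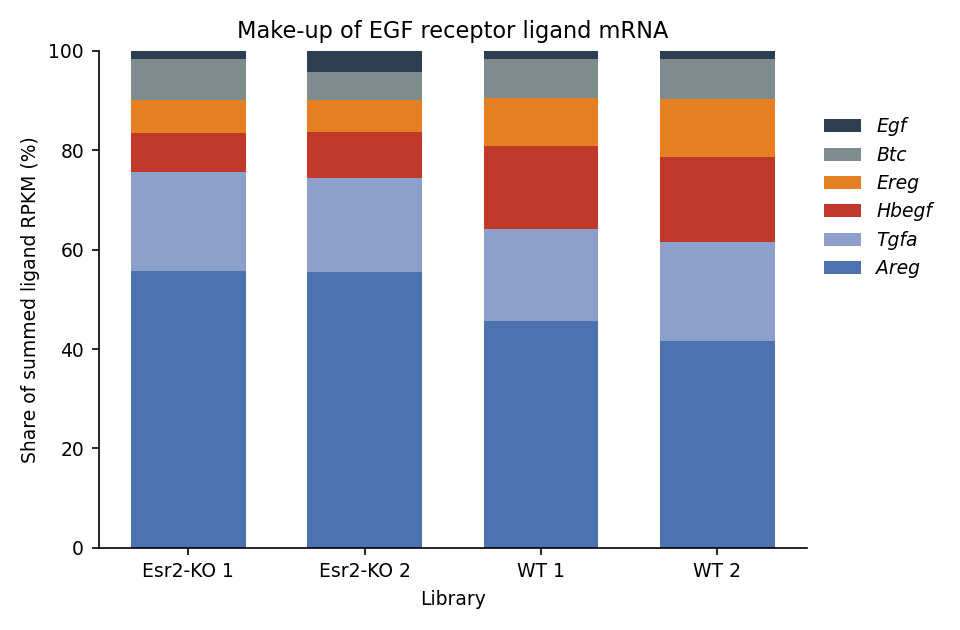
Share of each ligand in the summed ligand RPKM on the union of exons (vertical axis, percent) for each library (horizontal axis), Esr2-KO left of WT. The Hbegf segment is 7.93% and 9.20% in Esr2-KO and 16.8% and 17.1% in WT, and the Egf segment is widest in Esr2-KO 2 (4.26%).

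Since the deleted gene encodes a DNA-binding receptor, promoters were searched for its known motif. RefSeq promoters (GRCm38.p6, 250 bases before to 50 after a start) were found for 7 of the 9 genes, 9 promoters in all, and none for Hbegf or Ereg. The estrogen response element GGTCANNNTGACC, searched on both strands, was in 0 of the 9 and in 0.0700% of all 32851 promoters. At so low a share, 0 is what nearly any 9 promoters would give, so this count says nothing about these genes. The shorter motif AGGTCA, a single arm of the element, was in 1 of the 9 (Errfi1) and in 16.3% of all. The cyclic AMP response element TGACGTCA, known to drive AREG in human cells, was in 2 of the 9 and in 1.79% of all, and it does not overlap the other motifs searched. The AP-1 site TGANTCA was in none of the 9 (7.81% of all), and CCGGAAG, bound by ETS factors, was in 2, of Egf and Egfr (8.86% of all). Letters in a window are no evidence that a factor binds there. The sequences before the starts of Areg, the most abundant ligand gene, and of the second Errfi1 promoter are given because they hold the cyclic AMP response element, in capitals. They come from chr5:91139349-91139598 and chr4:150854970-150855069, both on the plus strand, and the element begins 61 and 51 bases before the start.
Areg: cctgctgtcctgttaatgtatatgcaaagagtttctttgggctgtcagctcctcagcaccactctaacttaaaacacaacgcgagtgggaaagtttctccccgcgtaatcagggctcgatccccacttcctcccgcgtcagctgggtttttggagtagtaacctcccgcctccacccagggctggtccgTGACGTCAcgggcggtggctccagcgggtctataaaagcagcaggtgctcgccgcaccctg
Errfi1: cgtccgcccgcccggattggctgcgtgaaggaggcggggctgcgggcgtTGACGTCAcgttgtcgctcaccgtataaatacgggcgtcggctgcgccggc

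Beyond the 9 genes, 7 lists of the pathway held 86 genes, of which 82 were tested. In them 2 genes rose, 1 fell and 79 did not pass, or 3.66% called, against 2.69% of all genes tested. The median log2 fold change over the 82 was 0.03. The genes that changed were the protease gene Rhbdl2 and the kinase gene Map2k1, both higher in Esr2-KO, and the transcription factor gene Etv5, which was lower.

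**Figure D4:**
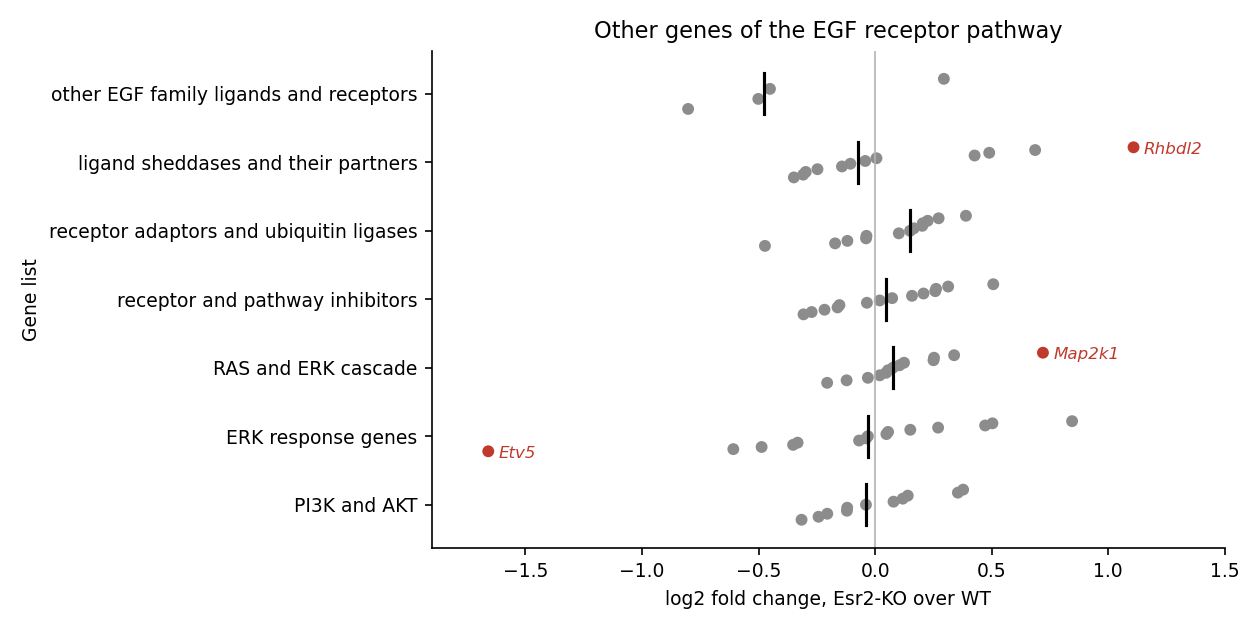
Log2 fold change, Esr2-KO over WT (horizontal axis), of every tested gene in 7 pathway lists (vertical axis), with black bars for list medians and red points for genes past an adjusted p of 0.05. Most genes lie near 0, and Rhbdl2 (1.11), Map2k1 (0.72) and Etv5 (-1.66) stand out.

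Among the other ligands and receptors 4 of 7 genes were tested and none passed. Nrg1, the neuregulin 1 gene whose product binds ERBB3, had 6.29 and 5.23 CPM in Esr2-KO and 11.2 and 8.88 CPM in WT (log2 fold change -0.80 ± 0.23, edgeR adjusted p = 0.125). Erbb3, the kinase-poor receptor that pairs with ERBB2, had 135 and 129 CPM in Esr2-KO and 162 and 199 CPM in WT (-0.45 ± 0.14, edgeR adjusted p = 0.142). For both genes the groups did not overlap, as for 54.7% of all genes tested. Erbb4 had 0 counts in every library, where 3 counts, the limit that a count of 0 allows, correspond to at most 0.114 CPM (counting error only).

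Among 12 sheddases and partners, which free or restrain the ligands, 1 rose and 0 fell, with a list median of -0.07. Over all genes tested 1.3% were called higher and 1.39% lower. Rhbdl2 encodes a rhomboid protease that in human cells was shown to cut EGF. It had 92.1 and 98.0 CPM in Esr2-KO and 43.4 and 44.7 CPM in WT, and replicates were close in both groups. The log2 fold change was 1.11 ± 0.11 (edgeR adjusted p = 0.0148), 2.16 times the WT level, and the call held under each of 14 other settings. Adam17, the main sheddase of Hbegf, Areg, Ereg and Tgfa, had 46.0 and 45.5 CPM in Esr2-KO and 54.5 and 46.5 CPM in WT (-0.14 ± 0.13, edgeR adjusted p = 0.569). Adam10, which cuts EGF and betacellulin, was at -0.11 ± 0.13 (edgeR adjusted p = 0.683). Adam17 and Adam10 were named after their values were seen.

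None of 13 adaptors and ubiquitin ligases passed (median 0.15), nor any of 14 tested inhibitors (median 0.05). The smallest p values belonged to Grb7, an adaptor of ERBB2 (-0.47 ± 0.11, edgeR adjusted p = 0.0851), and Cblc, a ubiquitin ligase of the epithelium (0.39 ± 0.12, edgeR adjusted p = 0.138). Among the inhibitors they belonged to Socs5 (0.51 ± 0.13, edgeR adjusted p = 0.0900) and Spry2, a Sprouty gene (0.31 ± 0.13, edgeR adjusted p = 0.243). Of 11 PI3 kinase and AKT genes none passed (median -0.04), with Pik3r2 at 0.38 ± 0.11 (edgeR adjusted p = 0.131) and Pik3r3 at 0.36 ± 0.19 (edgeR adjusted p = 0.334).

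In the RAS and ERK cascade 1 of 13 genes rose, against 1.3% of all genes tested, and the list median was 0.08. Map2k1, which encodes the kinase MEK1 that activates ERK, had 276 and 248 CPM in Esr2-KO and 156 and 161 CPM in WT. Both Esr2-KO libraries were above both WT libraries, and the log2 fold change was 0.72 ± 0.13 (edgeR adjusted p = 0.0423). With single libraries left out, the call ended without WT 1 (edgeR adjusted p = 0.165) and without WT 2 (0.103), and among other scalings it ended with library totals (0.253).

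Of 15 genes known to respond to ERK 1 fell and 0 rose, and the list median was -0.03. Calls of lower genes made up 1.39% of all genes tested and calls of higher genes 1.3%. Etv5, an ETS factor of the PEA3 group, had 15.4 and 11.0 CPM in Esr2-KO and 50.4 and 33.03 CPM in WT. Both Esr2-KO libraries were low, and the log2 fold change was -1.66 ± 0.26 (edgeR adjusted p = 0.0305). Without WT 1 it was -1.32 and did not pass (edgeR adjusted p = 0.0952). Etv4, its close relative, named after its values were seen, was at 0.85 ± 0.25 (edgeR adjusted p = 0.132), with 14.9 and 23.6 CPM in Esr2-KO and 11.7 and 9.74 CPM in WT. Dusp6, a phosphatase that switches ERK off, also named after its values were seen, was at -0.49 ± 0.21 (edgeR adjusted p = 0.246).

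By pattern over the 4 libraries, the gene closest to Hbegf among 12104 was Npas2, a partner of the clock factor BMAL1. Its centred log2 CPM differed from that of Hbegf by a root mean square of 0.02. Npas2 had 13.6 and 15.1 CPM in Esr2-KO and 32.9 and 27.0 CPM in WT. Lrrc3 (0.02) and Ccdc109b (0.06), a regulator of the mitochondrial calcium channel, came next. Closest to Egf were Slc6a9, a glycine transporter (0.08), Lrrc75b (0.10) and Aldh7a1 (0.12). Slc6a9 had 503 and 1035 counts in Esr2-KO and 556 and 522 counts in WT, so that it too was high in Esr2-KO 2 alone. With 4 libraries many genes share a pattern, and these names are a description.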

How the data were processed

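Total RNA of colon was profiled in 4 libraries, 2 Esr2-KO and 2 WT, from rRNA-depleted, directional NEBNext Ultra libraries, per the labels' protocols. The deposited values are raw counts per gene symbol, as the values show. Alignment used HISAT2 and mm10, per the submitters' processing notes. For the counting program, the annotation and the strand setting no source used here gives a name.

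Counts were filtered with filterByExpr (minimum count 10, minimum total 15), scaled by TMM and fitted across 17169 genes by edgeR 4.0.16 (R 4.3.3), whose two-sided quasi-likelihood test (glmQLFit and glmQLFTest) had 2 residual degrees of freedom. The fit also moderated the dispersion of each gene with that of all genes tested. Intervals used the total degrees of freedom that this gave. Standard errors came from the F statistic. CPM used TMM-scaled totals, and log2 CPM a prior count of 0.5. Replicates differed beyond sampling noise in both groups (chi-square per degree of freedom 519 in Esr2-KO and 42.7 in WT). The procedure was tested on simulated data.

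Members and lists were chosen with earlier results of these data known. All 9 members were described. In each other pathway list the genes past the threshold were named, or otherwise the 2 with the smallest p. The closest genes in pattern were the 3 with the smallest root mean square difference, at a mean of at least 2 log2 CPM. Genes named outside the rule are marked. Alternatives were other scalings, filters, thresholds and tests (DESeq2 1.42.0, limma-voom 3.58.1), a block for the replicate number, the omission of each library, and the acinar or the 50 most abundant genes left out. Coordinates are RefSeq GRCm38.p6, counted from 1, and exon lengths GENCODE M21.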

Additional observations from a re-analysis of the deposited data

How the results depend on the processing

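The call of Hbegf was kept in 11 of 14 settings, with log2 fold changes from -1.26 to -0.96. Same-numbered libraries did not deviate together (r = -0.05 between Esr2-KO 1 and WT 1), and with the replicate number as a block Hbegf had an edgeR adjusted p of 0.0541, 0 of the 9 genes passed, and 490 of all genes did. The replicate block left 2 other pathway genes called, Rhbdl2 and Etv5, and ended the call of Map2k1 (log2 fold change 0.72, edgeR adjusted p = 0.0590). Genes called came to 462, and to 695 with library totals, 1916 with no low-count filter, 1693 with DESeq2, 1245 at an adjusted p of 0.10, and 165 to 1804 with 1 library left out (165 without WT 1, 1804 without Esr2-KO 1). Members called were 1, and 3 with no filter, 2 with DESeq2, 2 at an adjusted p of 0.10, and 0 to 2 with 1 library left out, where 0 held without WT 1 or WT 2. Other pathway genes called were 3, and 8 with no filter, 9 with DESeq2, 6 at 0.10, and 1 to 7 with 1 library left out. As a share of all genes, 2.69% of 17169 were called. That share was 7.51% of 25515 with no filter, 6.64% of 25515 with DESeq2 and 7.25% of 17169 at an adjusted p of 0.10. The cause of the differences between settings was not tested. Directions of the 9 genes held in 119 of 126 values. They turned for Erbb2 with library totals (-0.12), without Esr2-KO 1 (-0.02) and without WT 1 (-0.12), where its values with 1 library left out ran from -0.12 to 0.23. They also turned for Egf (-0.11 to 1.24 with 1 library left out), Btc (-0.65 to 0.016), Tgfa (-0.16 to 0.0059) and Errfi1 (-3.01 to 0.55). The direction of the 11 other pathway genes that the rule named held in all 154 values. Adam10, Adam17, Etv4 and Dusp6, named beyond the rule, were not followed through these settings. Low counts, as for Errfi1 in 3 libraries, limit what could be seen.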

Other observations

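The gap between the WT libraries in Errfi1 was unusual among the genes tested: 85 of 17169 genes (0.495%) differed between WT 1 and WT 2 at least as much on the log2 scale. Among 14618 genes averaging 0 log2 CPM or more, chosen after these values were seen, the closest pattern was that of Ehf, an ETS factor of epithelia. Ehf had 4.27 and 4.10 CPM in Esr2-KO and 3.52 and 32.3 CPM in WT, so that it too was high in WT 2 alone. Cubn, which encodes the receptor cubilin, had 0.965 and 0.721 CPM in Esr2-KO and 0.991 and 5.40 CPM in WT. Wdfy1, which encodes an endosomal protein, had 9.74 and 9.37 CPM in Esr2-KO and 11.3 and 67.9 CPM in WT. For Egf, 6.07% of genes differed at least as much between the Esr2-KO libraries, where Esr2-KO 2 was 2.55 times Esr2-KO 1.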
